A study of Macaca mulatta with 136 samples.

Results

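The genes described here are transcription factors of retinal ganglion cells in the eye of the rhesus macaque. The list held 7 symbols, POU4F1, POU4F2, ISL2, EOMES, TBR1, SATB1 and FOXP2, and a row was used wherever the gene symbol that the authors assigned to it matched the list. EOMES matched no row and was not analysed here. The other 6 symbols matched 7 of 19422 gene identifiers, since SATB1 has a main entry (ENSMMUG00000019009) and a second entry (ENSMMUG00000047266). The remaining identifiers were ENSMMUG00000030683 for POU4F1, ENSMMUG00000023440 for POU4F2, ENSMMUG00000042861 for ISL2, ENSMMUG00000011911 for TBR1 and ENSMMUG00000008005 for FOXP2. The ISL2 row and the second SATB1 entry carry no macaque gene name of their own, so their assignment is uncertain. POU4F1 carries its name, but 1 source of orthology backs it, as for the second SATB1 entry. The identifier of POU4F2, backed by 9 sources, is missing from the gene names used here as a reference, as are those of ISL2 and the second SATB1 entry.

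Retinal ganglion cells are the output neurons of the retina, and their axons form the optic nerve. In primates their cell bodies are stacked several layers deep around the foveal pit and thin out to a sparse layer toward the periphery. POU4F1 and POU4F2 are POU homeodomain factors, and POU4F2 is required for the normal differentiation and survival of many ganglion cells. ISL2 is a LIM homeodomain factor that in the mouse marks ganglion cells projecting to the opposite side of the brain. TBR1 (a T-box factor), SATB1 (an organizer of chromatin loops) and FOXP2 (a forkhead repressor) are known in the mouse as markers of separate subsets of ganglion cells, and SATB1 and FOXP2 are also used by many other cell types.

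RNA came from punches of 2 mm diameter taken after death from the right (OD) and left (OS) eyes of 2 animals, RM03 and RM04, with no treatment stated. Neural retina was separated from RPE/choroid, which holds the retinal pigment epithelium and the underlying vessels, at the fovea (fovea/macula), the perimacula, a nasal location and the periphery. The protocol in the labels names a temporal punch in place of a peripheral one, and the location label was used. Each of the 8 groups of tissue and location thus held 4 eyes, 32 libraries in all, and fellow eyes share an animal. Library totals ranged from 42448903 to 78574055 estimated counts. Levels are CPM, estimated counts brought to a common library size after TMM scaling (a correction for library composition), and are not divided by transcript length, so that they compare libraries for a given gene and not a gene with another gene.

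The tissue labels were checked on defining markers. Summed over 15 ganglion cell markers, retina libraries held between 11016 and 12817 CPM at the fovea and between 622 and 1334 CPM at the periphery, against 167 to 541 CPM over all locations of RPE/choroid. RBPMS alone held a mean of 212 CPM in RPE/choroid at the fovea, so that this marker is not specific to ganglion cells in that tissue. Nor are RBPMS2, NRN1 and THY1. RBPMS2 had a higher mean in RPE/choroid than in retina at all 4 locations, with 55.0 against 12.2 CPM at the fovea. At the periphery NRN1 held 56.2 CPM in RPE/choroid against 21.7 in retina, and THY1 61.1 against 60.7. The other markers had lower means in RPE/choroid at every location. All 15 are used below. RPE markers summed to between 231 and 331 CPM in foveal retina and to between 775 and 1348 CPM in peripheral retina, and photoreceptor markers in RPE/choroid amounted to 9.37% of their retinal level at the fovea and 2.36% at the periphery. Sequencing used 5 lanes over 2 shared flow cells for every library except those of the periphery, which had 2 lanes on 1 flow cell of their own, and location and flow cell cannot be told apart there. The comparison of fovea with nasal retina is free of that confounder and is given beside the comparisons with the periphery.

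In retina, POU4F1, POU4F2 and TBR1 were highest at the fovea and lowest at the periphery, FOXP2 ran the opposite way, and ISL2 did not pass the test in any comparison of locations. Between fovea and periphery 4 of 7 entries were called at a Benjamini-Hochberg adjusted p under 0.05 in edgeR's quasi-likelihood test, against 67.0% of all 15380 genes tested. Between fovea and nasal retina 5 of 7 entries were called, against 52.2% of genes. Between fovea and perimacula 5 of 7 were called, against 35.2%, and between perimacula and periphery 4 of 7, against 50.3%. Between nasal retina and periphery 3 of 7 were called, against 48.7%. Between perimacula and nasal retina edgeR called 0 of 7 entries, with 1.49% of genes called. There POU4F1, POU4F2 and FOXP2 had an unadjusted p under 0.05, and DESeq2 called 1 entry, FOXP2. The shares of entries lie near the background in several of these comparisons, so the counts say little about this group of genes, and the sizes and directions are given gene by gene.

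**Figure D1:**
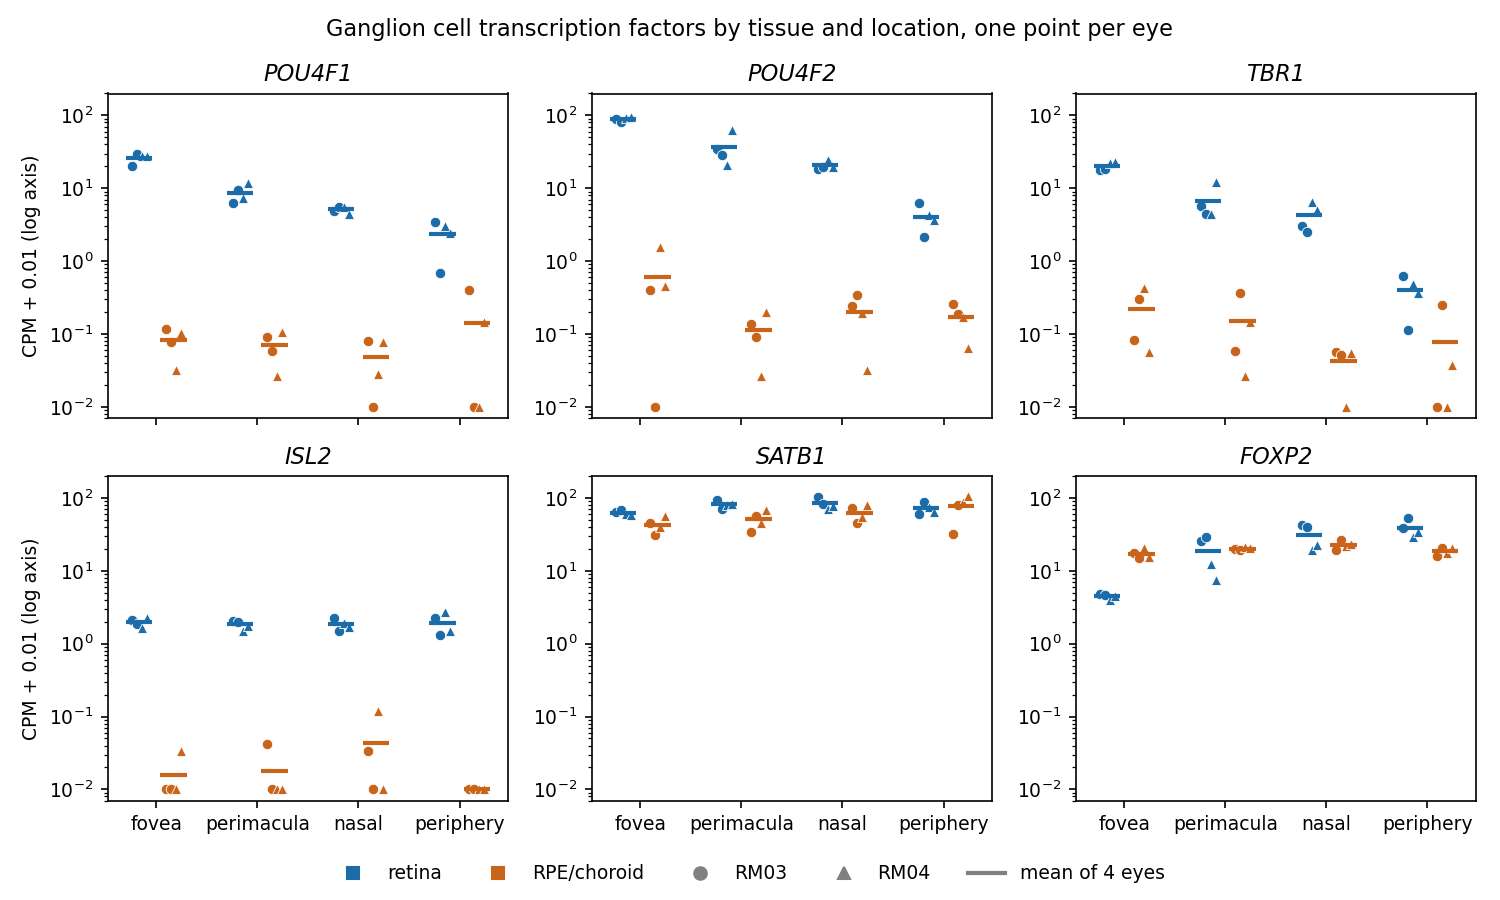
CPM plus 0.01 on a log axis for 6 transcription factors at 4 locations, with retina in blue, RPE/choroid in orange, circles for RM03, triangles for RM04 and a line at the mean of 4 eyes. POU4F1, POU4F2 and TBR1 step down from fovea to periphery in retina and lie at or below 1.54 CPM in every RPE/choroid library, whereas FOXP2 climbs outward in retina and stays between 15.2 and 26.7 CPM in RPE/choroid.

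POU4F2 stood at 88.5 and 81.6 CPM in the right and left foveal retina of RM03 and at 91.1 and 94.5 CPM in those of RM04. At the perimacula the same eyes gave 35.1, 28.3, 21.1 and 62.5 CPM. In nasal retina they gave 18.3, 19.6, 24.6 and 19.7 CPM, and at the periphery 6.18, 2.16, 4.28 and 3.63 CPM. Every foveal library lay above every library of the other locations, and the left perimacula of RM04 lay closest to the foveal range. The mean fell from 88.9 ± 5.47 CPM (SD, n = 4 eyes) at the fovea to 20.5 ± 2.80 CPM in nasal retina and 4.06 ± 1.67 CPM at the periphery. Foveal retina exceeded peripheral retina by 4.50 on the log2 scale (SE 0.37, edgeR adjusted p = 7.77e-07), a 22.6-fold difference, and nasal retina by 2.16 (SE 0.30, edgeR adjusted p = 2.63e-05). Within each of the flow cells that fovea and nasal retina share, the log2 ratio of the mean CPM was 2.13 and 2.11. The flow cell means are on a slightly different scale from the library CPM, at 91.3 and 92.5 for the fovea beside the library mean of 88.9. Bulk tissue cannot tell a location with fewer ganglion cells from one with less of a transcript per ganglion cell.

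POU4F1, the close relative of POU4F2, was found at 20.4, 29.8, 27.3 and 27.5 CPM in the foveal retina of RM03 OD, RM03 OS, RM04 OD and RM04 OS. The perimacula gave 6.27, 9.59, 7.40 and 11.6 CPM in the same order, and nasal retina 4.89, 5.60, 5.57 and 4.49 CPM. The periphery gave 3.42, 0.685, 3.01 and 2.41 CPM. The 4 ranges did not overlap at all, and the lowest library was the left periphery of RM03, with 47 estimated counts. The log2 fold change was 3.53 (SE 0.38, edgeR adjusted p = 5.80e-06) between fovea and periphery and 2.39 (SE 0.33, edgeR adjusted p = 2.93e-05) between fovea and nasal retina. Against the perimacula the fovea was higher by 1.65 for POU4F1 (SE 0.35, edgeR adjusted p = 0.00358) and by 1.33 for POU4F2 (SE 0.32, edgeR adjusted p = 0.00751). Both of these perimacular calls were lost when the RM04 OD eye was left out, at adjusted p = 0.0501 for POU4F1 and 0.0534 for POU4F2, with log2 fold changes of 1.56 and 1.17. Over all 13 alternatives run for that comparison the adjusted p ranged from 1.31e-05 to 0.0501 for POU4F1 and from 0.000142 to 0.0534 for POU4F2. Nasal retina exceeded the periphery by 1.12 for POU4F1 (SE 0.33, edgeR adjusted p = 0.0119) and by 2.33 for POU4F2 (SE 0.31, edgeR adjusted p = 2.84e-05). The POU4F1 call was lost without the RM04 OD eye (adjusted p = 0.0511, in a range of 0.000973 to 0.0511 over 11 alternatives).

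ISL2 was low and level across the retina. Its libraries ranged from 1.63 to 2.22 CPM at the fovea, from 1.51 to 2.06 CPM at the perimacula, from 1.497 to 2.27 CPM in nasal retina and from 1.30 to 2.69 CPM at the periphery. These ranges overlap, and the means were 1.961 ± 0.262, 1.83 ± 0.255, 1.84 ± 0.327 and 1.92 ± 0.652 CPM (SD, n = 4 eyes). The log2 fold change of fovea over periphery was 0.08 (SE 0.23, edgeR adjusted p = 0.763), and the estimate plus or minus 1.96 SE ran from -0.37 to 0.54. That interval does not contain the difference seen for POU4F1, POU4F2 or TBR1. Fovea over nasal retina gave 0.13 (SE 0.23, edgeR adjusted p = 0.666), with an interval from -0.32 to 0.57. Between 86 and 199 estimated counts lay behind each retina value, and lanes of a library differed by 1.04 times the variance of counting alone.

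TBR1 had the largest log2 fold change of the 7 entries between fovea and periphery, while against nasal retina FOXP2 and POU4F1 changed by slightly more. Foveal retina held 17.8 and 18.4 CPM in RM03 and 22.02 and 22.7 CPM in RM04, right eye before left. The perimacula held 5.72, 4.49, 4.42 and 12.2 CPM, nasal retina 3.01, 2.52, 6.42 and 5.03 CPM, and the periphery 0.615, 0.102, 0.473 and 0.355 CPM. The foveal libraries lay above all others and the peripheral libraries below all others, and in nasal retina both eyes of RM04 lay above both eyes of RM03. The highest perimacular value came from RM04 OS, the library that also stood apart for POU4F2. The peripheral values rest on 7 to 49 estimated counts, against 866 to 1368 at the fovea. The log2 fold change was 5.74 (SE 0.44, edgeR adjusted p = 4.58e-07) between fovea and periphery, 2.36 (SE 0.34, edgeR adjusted p = 3.79e-05) between fovea and nasal retina, and 1.67 (SE 0.35, edgeR adjusted p = 0.00351) between fovea and perimacula. Nasal retina exceeded the periphery by 3.38 (SE 0.39, edgeR adjusted p = 8.59e-06). Within the shared flow cells the fovea over nasal log2 ratio was 2.27 and 2.24.

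FOXP2 had far less transcript at the fovea than at the other locations. Foveal retina gave 4.74 and 4.595 CPM in RM03 OD and OS and 3.97 and 4.49 CPM in RM04 OD and OS, the tightest group of this gene with an SD of 0.335. At the perimacula the eyes gave 25.95, 29.02, 12.6 and 7.39 CPM, in nasal retina 42.1, 40.6, 19.2 and 22.3 CPM, and at the periphery 38.6, 53.5, 29.1 and 33.96 CPM. All 12 libraries from outside the fovea lay above all 4 from the fovea. At each of the 3 outer locations both eyes of RM03 also lay above both eyes of RM04, with animal means of 27.5 and 10.0 CPM at the perimacula, 41.4 and 20.8 CPM in nasal retina, and 46.0 and 31.6 CPM at the periphery. With 2 animals this difference was not tested. Foveal retina was lower than peripheral retina by a log2 fold change of -3.03 (SE 0.27, edgeR adjusted p = 1.27e-06), an 8.16-fold difference, lower than nasal retina by -2.66 (SE 0.24, edgeR adjusted p = 7.35e-07), and lower than the perimacula by -1.87 (SE 0.26, edgeR adjusted p = 0.000358). The perimacula was in turn below the periphery, at -1.16 (SE 0.25, edgeR adjusted p = 0.00229). Perimacula against nasal retina, at -0.79 (SE 0.22, edgeR adjusted p = 0.0917), and nasal retina against periphery, at -0.37 (SE 0.22, edgeR adjusted p = 0.183), did not pass. Within the shared flow cells the fovea over nasal log2 ratio was -2.91 and -2.72.

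Many markers of Müller glia, photoreceptors and RPE also rose outward with FOXP2. All 7 Müller glia markers were called lower at the fovea than at the periphery, as were 7 of 11 photoreceptor and 6 of 7 tested RPE markers. Over all genes 5542 of 15380 were called lower. The cone genes CNGB3, GNAT2 and PDE6C went the other way, higher at the fovea by 0.90, 0.87 and 1.25 on the log2 scale. Against nasal retina the counts were 7, 7 and 6 lower, beside 4205 of 15486 genes, and ARR3 was also higher at the fovea. Markers of amacrine and bipolar cells are given further below. In retina the Müller glia markers summed to 1438 to 1609 CPM at the fovea, 1988 to 2621 at the perimacula, 3078 to 3261 in nasal libraries and 4688 to 6802 in peripheral ones, with no marker at 0. The photoreceptor markers summed to 4634 to 5228, 9886 to 15140, 13349 to 15708 and 21664 to 24208 CPM in the same order, again with none at 0. APOE, RGR, RLBP1 and VIM of the Müller glia list are not specific to these cells, since 4 of the 7 markers were called higher in RPE/choroid than in retina at the fovea, the perimacula and the nasal location and 3 at the periphery. The part of these cells in the FOXP2 gradient was not tested. The level of FOXP2 in peripheral retina, 38.8 ± 10.5 CPM (SD, n = 4 eyes), exceeded its level in RPE/choroid of the same location, 18.7 ± 2.28 CPM, and the groups did not overlap.

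SATB1 differed little between locations. Foveal retina gave 63.5, 69.2, 59.6 and 59.02 CPM in RM03 OD, RM03 OS, RM04 OD and RM04 OS, and the perimacula 93.8, 71.8, 79.8 and 82.9 CPM. Nasal retina gave 104, 82.8, 71.7 and 78.7 CPM and the periphery 60.8, 87.6, 75.8 and 65.2 CPM. The fovea did not overlap with the perimacula or with nasal retina but overlapped with the periphery. The log2 fold change was -0.38 (SE 0.12, edgeR adjusted p = 0.0116) against nasal retina, -0.33 (SE 0.12, edgeR adjusted p = 0.0496) against the perimacula and -0.15 (SE 0.12, edgeR adjusted p = 0.279) against the periphery, with an interval of 1.96 SE from -0.39 to 0.08 for the last. The perimacular call was kept in 7 of 13 alternatives and lost with the eye as a replicate block (adjusted p = 0.0748), without the covariate (0.0753), without the RM04 OS perimacula library (0.0966) and without the RM03 OD, RM04 OD or RM04 OS eye (0.116, 0.144 and 0.141), in a range of 0.0106 to 0.144. The nasal call was kept in 9 of 11 and lost without the RM03 OD eye (-0.23, adjusted p = 0.111) or the RM04 OS eye (-0.38, adjusted p = 0.0681), in a range of 0.00313 to 0.111.

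The SATB1 values also differed between sequencing lanes of the same library. CPM of lanes are on a slightly different scale from the library CPM. For POU4F2 in foveal retina of RM04 OD the lowest lane stood at 92.5 CPM and the library at 91.1 CPM. In the retina libraries of 5 lanes, the highest lane exceeded the lowest by a median of 1.81 times, and in the nasal library of RM04 OD the lanes ran from 29.7 to 114 CPM, a ratio of 3.84. Over 52 degrees of freedom the variance between lanes was 57.4 times that of counting alone for SATB1. It was 1.26 times for POU4F2, 2.11 for POU4F1, 1.92 for TBR1 and 3.42 for FOXP2. The lanes of a library carry the same molecules, so the estimate of SATB1 in a library is far less precise than its counts of 3094 to 6079 in retina would give. Within the shared flow cells the fovea over nasal log2 ratio of SATB1 was nevertheless of the same sign, -0.36 and -0.45.

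The second SATB1 entry held between 26 and 92 estimated counts per retina library and was not called by edgeR in any comparison of locations. Between nasal retina and periphery it gave -0.68 (SE 0.28, edgeR adjusted p = 0.0626), which became a call at a minimum of 10 counts in each library (-0.71, adjusted p = 0.0408) and without the RM04 OS eye (-0.95, adjusted p = 0.0314), in a range of 0.0314 to 0.355 over 11 alternatives. Its lanes differed by 5.09 times the counting variance. Both entries carry the same symbol, and whether reads were divided between them was not tested.

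**Figure D2:**
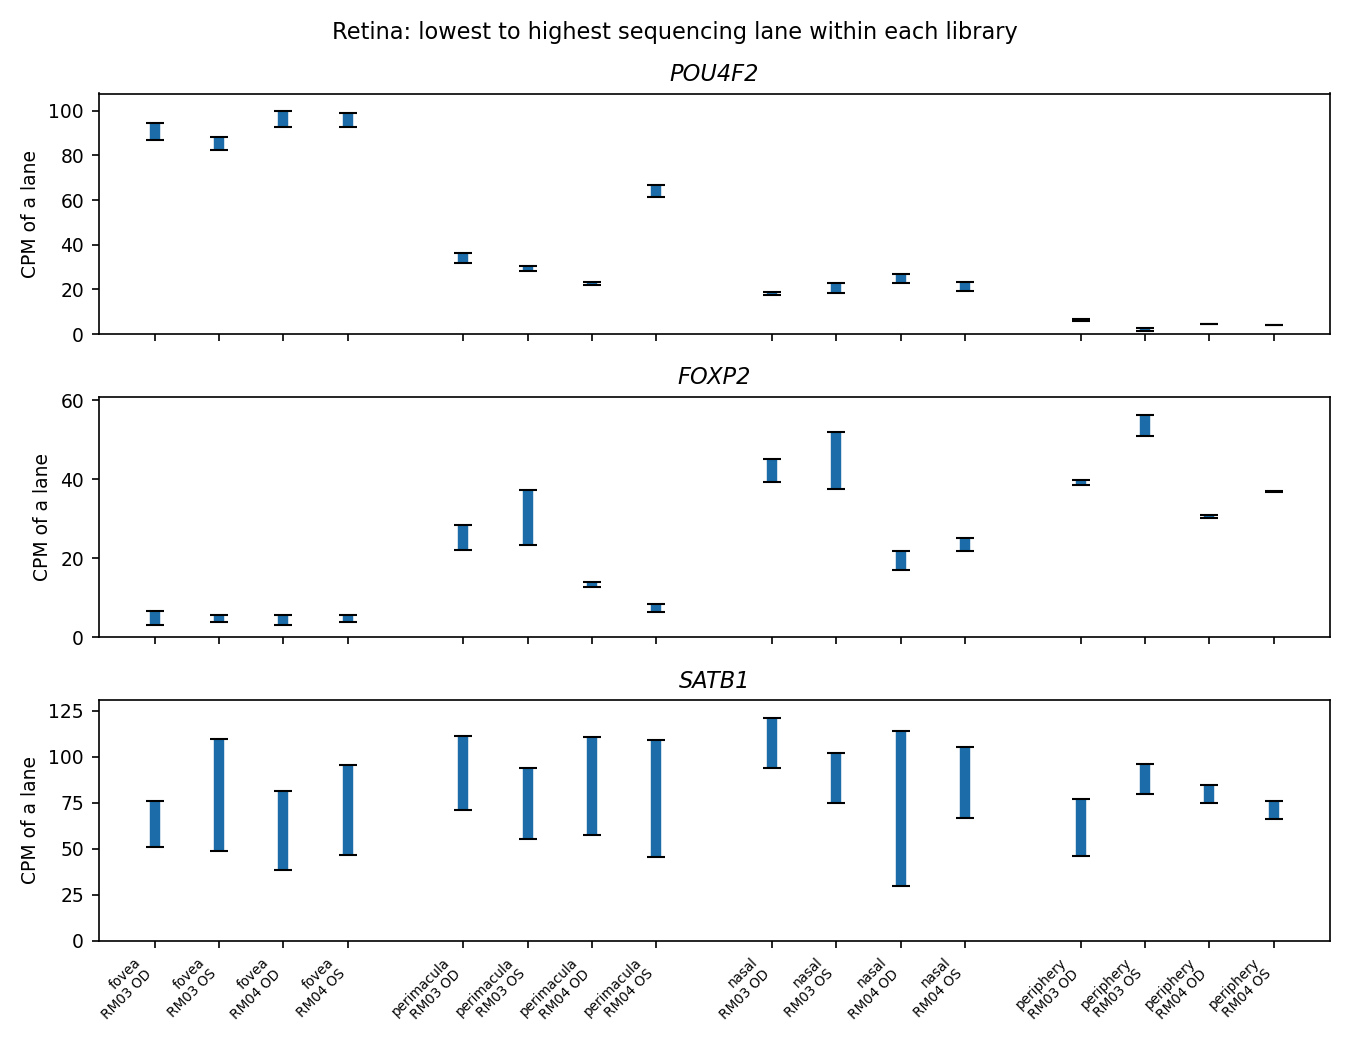
CPM of the lowest and the highest sequencing lane (black ticks, joined by a blue bar) of each of 16 retina libraries for POU4F2, FOXP2 and SATB1, on linear axes that start at 0. The lanes of a library lie close together for POU4F2, while those of SATB1 span from 29.7 to 114 CPM in the nasal library of RM04 OD. The scale of lane CPM differs slightly from that of library CPM.

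**Figure D3:**
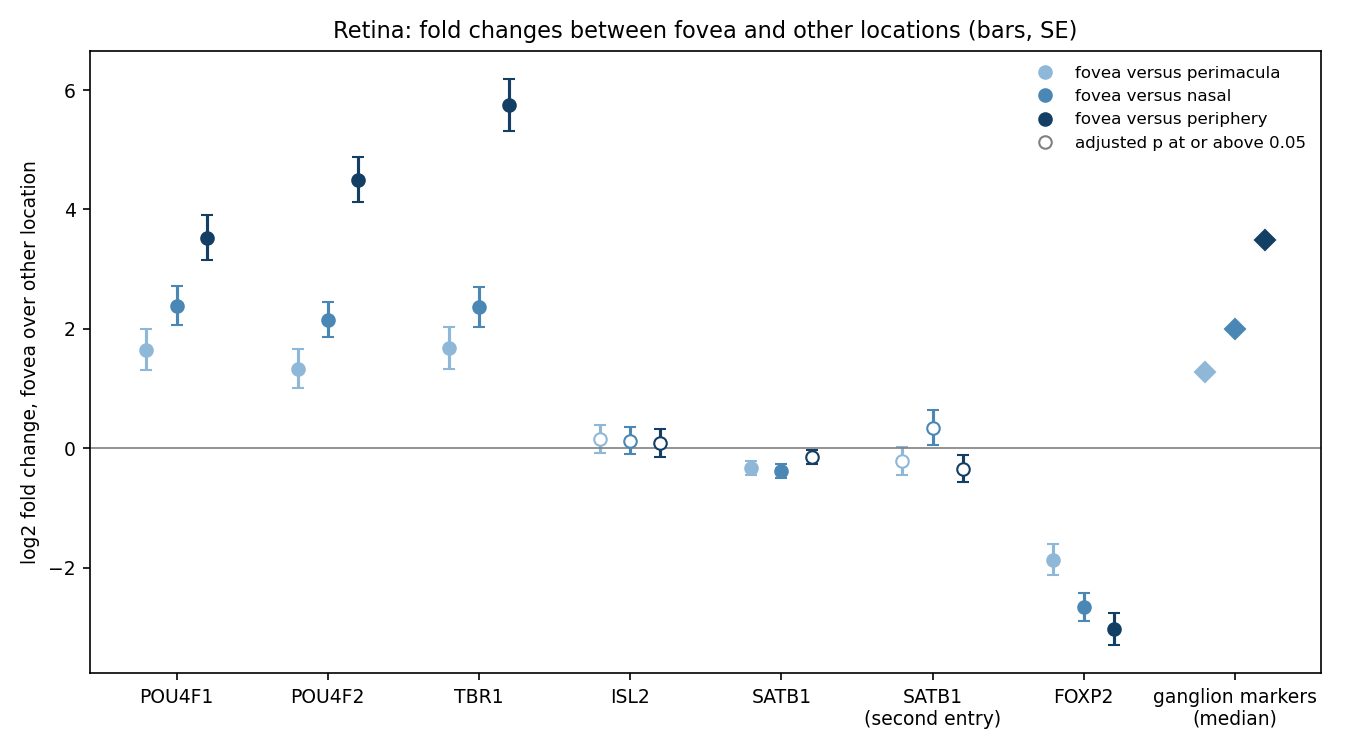
Retinal log2 fold change of fovea over perimacula, nasal retina and periphery for the 7 entries, with SE bars and open symbols where the adjusted p was 0.05 or more, and diamonds for the median of 15 ganglion cell markers. POU4F1, POU4F2 and TBR1 lie between 1.33 and 5.74, ISL2 and both SATB1 entries near 0, and FOXP2 between -1.87 and -3.03.

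The retinal gradients were next set against the ganglion cell markers, none of which is a member. Of 15 markers, 14 were called higher at the fovea than at the periphery, where 4770 of 15380 genes were called in that direction, with a median log2 fold change of 3.48 beside -0.06 over all genes. Among the markers with the highest CPM, the neurofilament subunits NEFM, NEFL and NEFH rose by 4.15, 4.12 and 3.17 on the log2 scale, and STMN2, a regulator of microtubules, by 3.18. OPN4, the melanopsin gene, did not pass the test against the periphery (0.52, SE 0.25, edgeR adjusted p = 0.0805). Against nasal retina 14 of 15 markers were called higher at the fovea, with 3886 of 15486 genes called in that direction and a median of 1.99, and OPN4 was lower (-1.005, SE 0.22, edgeR adjusted p = 0.00133). Against the perimacula 13 of 15 were called higher, with 2928 of 15380 genes called in that direction and a median of 1.28, and OPN4 was again lower (-0.85).

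A score of each library, the mean log2 CPM of the 15 markers, was subtracted from the log2 CPM of each member. The score itself fell from 7.81 ± 0.0459 at the fovea to 6.70 ± 0.376 at the perimacula, 6.12 ± 0.110 in nasal retina and finally 4.58 ± 0.505 for peripheral libraries (SD, n = 4 eyes). For POU4F2 the level relative to the score went from -1.26 ± 0.0502 at the fovea to -2.61 ± 0.217 at the periphery, so that POU4F2 fell by more than the mean of the markers. The difference was 1.36 (exact permutation test, 4 eyes against 4, two-sided, p = 0.0286, adjusted p = 0.04 over 21 tests). No p can be smaller than 0.0286 with 4 eyes against 4. This test treats the 8 libraries as independent although they come from the same 4 eyes. Permuted within the eyes instead, no p can be smaller than 0.125, so that none of the calls relative to the markers could be made there. The mean also hides unequal markers, since RBPMS, at 4.73, fell by more than POU4F2. Without OPN4 in the score the POU4F2 difference was 1.16, and over 9 alternatives it ranged from 0.77 to 1.45. TBR1 fell further still relative to the mean of the markers, from -3.40 ± 0.147 to -6.02 ± 0.531, a difference of 2.62 with the same exact p. For POU4F1 the difference of 0.47 did not pass (exact permutation p = 0.143).

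Between fovea and nasal retina, POU4F1 fell beyond the mean of the markers by 0.69 and POU4F2 by 0.47, each with adjusted p = 0.04 in the exact permutation test, while TBR1, at 0.69, did not pass (adjusted p = 0.0667). Between fovea and perimacula TBR1 fell beyond them by 0.64 (adjusted p = 0.04, exact), and POU4F1 and POU4F2, at 0.54 and 0.32, did not pass. Single markers fell by as much in the comparison with nasal retina, NEFM by 2.60 and NEFL by 2.44, against 2.39 for POU4F1 and 2.16 for POU4F2. Of these calls, 3 depended on which markers made up the score. With RBPMS, THY1, SNCG and NEFL alone, the adjusted p was 0.08 for POU4F1 and 0.568 for POU4F2 against nasal retina and 0.113 for TBR1 against the perimacula. Without OPN4 it was 0.075 for POU4F1, 0.0429 for POU4F2 and 0.1 for TBR1 in these comparisons. ISL2, SATB1 and FOXP2 did not follow the markers at any location. Relative to the score their differences of fovea minus periphery were -3.10, -3.37 and -6.26, and those of fovea minus nasal retina were -1.555, -2.06 and -4.36. All 9 of their comparisons of the fovea with another location had the smallest p that the exact test allows. The score of every foveal library lay above that of every other library, while the CPM of these genes stayed near level or rose outward. These p-values therefore restate the fall of the markers and add nothing about the 3 genes.

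**Figure D4:**
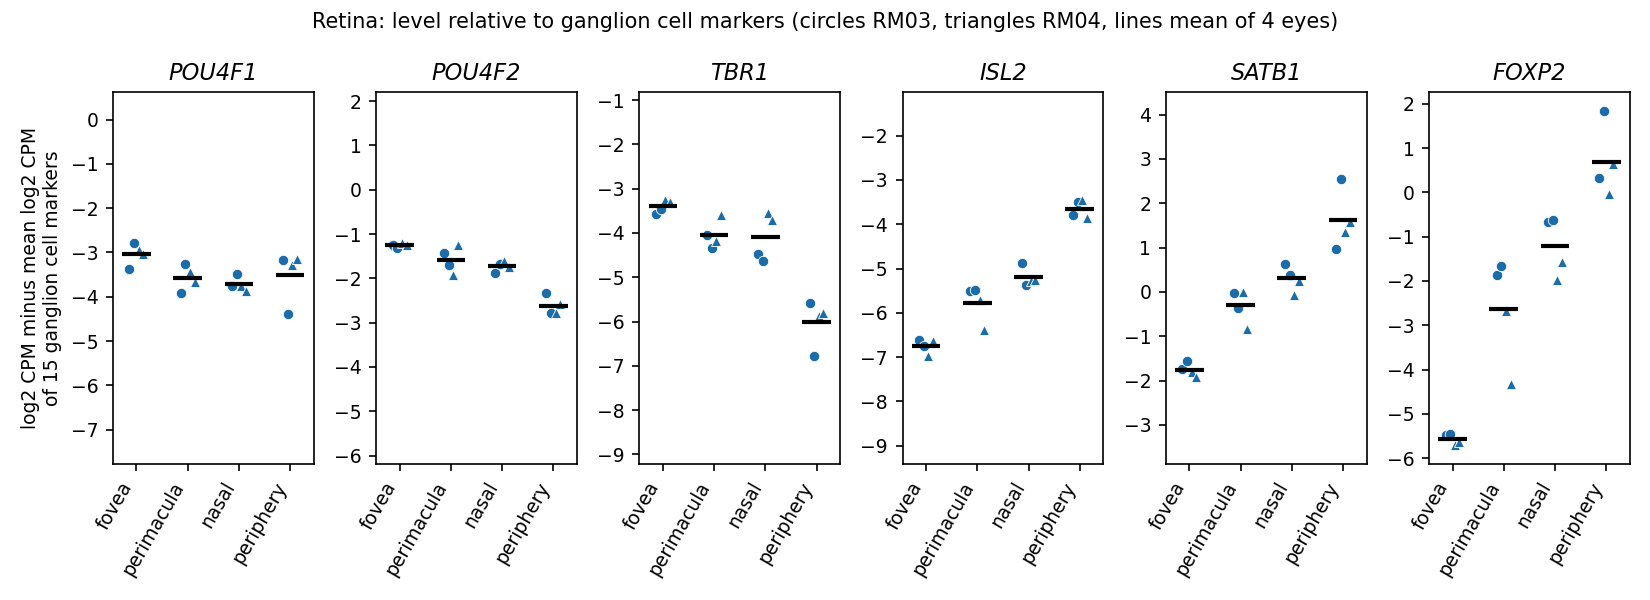
Log2 CPM of each transcription factor minus the mean log2 CPM of 15 ganglion cell markers in 16 retina libraries, with circles for RM03, triangles for RM04, a line at the mean of 4 eyes, and axes of equal span. POU4F2 and TBR1 decline toward the periphery, from -1.26 to -2.61 and from -3.40 to -6.02, POU4F1 stays between -3.03 and -3.72 in its means, and ISL2, SATB1 and FOXP2 climb.

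The other transcription factors known from ganglion cells were taken from a list of 18, chosen with earlier results of these data known. Of these 17 had a row and 15 could be tested in retina. Between fovea and periphery 12 of the 15 were called higher at the fovea and 1 lower, with a median log2 fold change of 1.89. Over all 15380 genes 4770 were called higher and 5542 lower. EBF1 and EBF3, helix-loop-helix factors, were higher by 3.896 and 4.17 (edgeR adjusted p = 4.82e-07 and 1.53e-07), within the range of POU4F1 to TBR1. ISL1, the close relative of ISL2 that is also used by bipolar and amacrine cells, was higher by 0.27 (edgeR adjusted p = 0.0301). SOX4, a factor of immature neurons, was lower at the fovea by a log2 fold change of -1.63 (edgeR adjusted p = 4.74e-07), the only factor of the 15 that was called in the direction of FOXP2. Between fovea and nasal retina 7 of 15 were called higher and 1, SOX4 again, lower, with a median of 0.40, beside 3886 and 4205 of 15486 genes. Between fovea and perimacula 6 were called higher and 1 lower, with a median of 0.49, beside 2928 and 2488 of 15380 genes.

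The lists for other cells of the retina were described in the same way, where 4770 of 15380 genes were called higher and 5542 lower at the fovea than at the periphery, and 3886 and 4205 of 15486 than in nasal retina. Between fovea and periphery 2 of 7 tested amacrine cell markers, TFAP2A and TFAP2B, were called higher at the fovea and 0 lower, with a median log2 fold change of 0.21. Against nasal retina the direction differed, with 0 called higher and 2, C1QL2 and SLC6A9, lower and a median of -0.17. Of 7 tested bipolar cell markers, GRIK1 was called higher and CABP5, PRKCA and TRPM1 lower, with a median of -0.28, and against nasal retina 1 was higher and 6 lower, with a median of -0.65. All 7 Müller glia markers were called lower in both comparisons, with medians of -2.19 and -1.22. Of 11 photoreceptor markers, the cone genes CNGB3, GNAT2 and PDE6C were called higher and 7 lower, with a median of -2.06, and against nasal retina ARR3 joined the cone genes called higher and 7 were lower, with a median of -1.84. Of 7 tested RPE markers 6 were called lower in each comparison, with medians of -1.47 and -0.96. Of 11 markers of T and NK cells, 10 had a row and 4 were tested, with 1 called higher and 2 lower against the periphery and 0 and 1 against nasal retina, and the 10 summed to at most 4.67 CPM in any retina library.

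**Figure D5:**
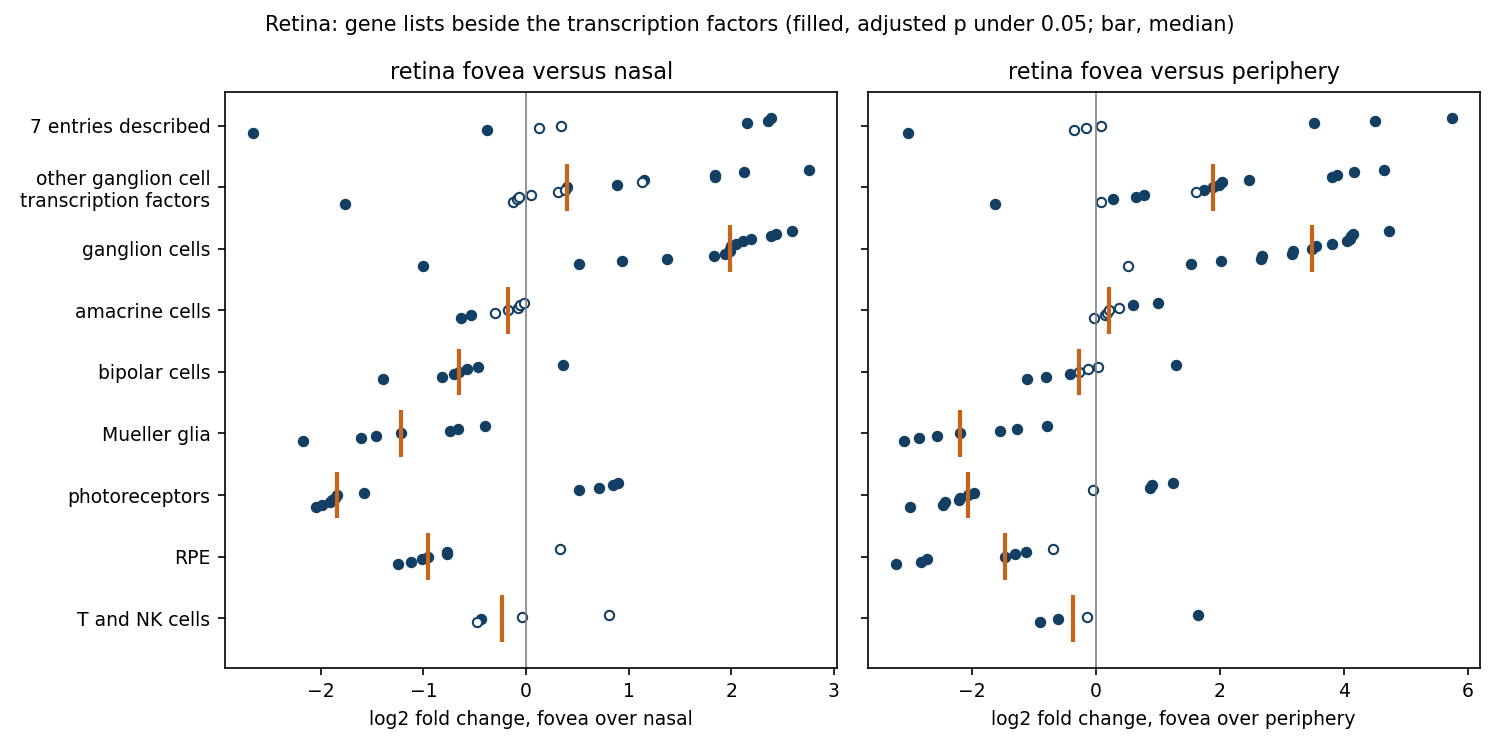
Retinal log2 fold change of fovea over nasal retina (left) and over periphery (right) for the 7 entries and 8 gene lists, with a point for each tested gene, filled where the adjusted p was under 0.05, and an orange bar at the median of each list. Ganglion cell markers lie at a median of 1.99 and 3.48 and Müller glia markers at -1.22 and -2.19, with the 7 entries spread from -2.66 to 2.39 and from -3.03 to 5.74.

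In RPE/choroid, POU4F1, POU4F2, TBR1 and ISL2 were near the limit of detection. POU4F2 reached at most 70 estimated counts, in the fovea of RM04 OD (1.54 CPM), and lay between 0 and 0.443 CPM in the other RPE/choroid libraries. POU4F1 reached at most 27 counts and TBR1 at most 22. ISL2 had 0 counts in 12 of 16 libraries and at most 6. Of the entries tested by location, 1 of 5 was called between fovea and periphery, against 44.1% of genes. Between fovea and perimacula edgeR called 0 of 5, against 0.0447% of genes, with 0 at an unadjusted p under 0.05. Between fovea and nasal RPE/choroid it called 0 of 5, against 0.361% of genes, with 1, FOXP2, at an unadjusted p under 0.05. DESeq2 also called 0 in both.

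The entry called was SATB1. It stood at 45.7, 31.1, 40.3 and 56.1 CPM at the fovea and at 31.8, 80.1, 88.9 and 107 CPM at the periphery of RM03 OD, RM03 OS, RM04 OD and RM04 OS. The groups overlapped, since the right eye of RM03 was lower at the periphery than at the fovea. The log2 fold change was -0.80 (SE 0.29, edgeR adjusted p = 0.0461). The call was kept in 6 of 12 alternatives, in a range of adjusted p from 0.00629 to 0.22, and was lost with the eye as a replicate block (-0.74, adjusted p = 0.0577), without the covariate, with the 2 locations alone, and without the RM03 OS, RM04 OD or RM04 OS eye (-0.53, -0.68 and -0.75).

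FOXP2 differed little between locations of RPE/choroid, with means of 17.2 ± 2.57 CPM for the fovea, 20.2 ± 0.784 for the perimacula, 22.8 ± 3.04 for the nasal libraries and 18.7 ± 2.28 for the periphery (SD, n = 4 eyes). The fovea over periphery log2 fold change was -0.13 (SE 0.12, edgeR adjusted p = 0.417), with an interval of 1.96 SE from -0.36 to 0.11. Fovea over nasal gave -0.40 (SE 0.12, edgeR adjusted p = 0.154), lower at the fovea in 4 of 4 eyes, with an interval from -0.64 to -0.16, and did not pass over all genes.

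Retina was compared with RPE/choroid at each location. POU4F1 and ISL2 entered these comparisons through their retinal counts alone, so their calls are no finding beyond their levels. At the fovea 5 of 7 entries were called, against 75.5% of genes. For perimacular tissue the count was 5 of 7, against 76.7%, for nasal tissue 4 of 7, against 76.2%, and for peripheral tissue 5 of 7, against 75.7%. POU4F1 and ISL2 are among the entries called at each location. The mean level of POU4F1 was 26.3 CPM in retina and 0.0724 CPM in RPE/choroid at the fovea, and 2.38 and 0.132 CPM at the periphery. POU4F2 was higher in retina by 7.26 on the log2 scale at the fovea (SE 0.60, edgeR adjusted p = 2.11e-11). At the periphery it was higher by 4.66 (SE 0.60, edgeR adjusted p = 1.09e-07).

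TBR1 exceeded RPE/choroid by 6.61 at the fovea (SE 0.81, edgeR adjusted p = 3.97e-08), but at the periphery the groups overlapped. There retina held 0.102 to 0.615 CPM and RPE/choroid 0 to 0.241 CPM, and the difference of 2.54 (SE 0.84, edgeR adjusted p = 0.00809) was lost without the RM03 OD eye (1.84, adjusted p = 0.106, in a range of 4.63e-05 to 0.106). For ISL2, the counts were 444 in retina and 1 in RPE/choroid over the 4 foveal libraries of each tissue, a ratio of 369 per effective library size with a 95% interval of 66.0 to 14622 for counting error alone. At the periphery they were 589 and 0, at least 175-fold higher in retina when 3 counts over the group are taken as the limit that a count of 0 allows.

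FOXP2 changed its order between the tissues with location. At the fovea it was lower in retina than in RPE/choroid by a log2 fold change of -1.97 (SE 0.26, edgeR adjusted p = 1.71e-07), in 4 of 4 eyes. At the perimacula (-0.20, SE 0.25, edgeR adjusted p = 0.476) and at the nasal location (0.39, SE 0.25, edgeR adjusted p = 0.158) it did not pass, with intervals of 1.96 SE from -0.69 to 0.29 and from -0.10 to 0.88. At the periphery it was higher in retina by 1.02 (SE 0.25, edgeR adjusted p = 0.000694), again in 4 of 4 eyes. SATB1 was called at the perimacula, where retina was higher by 0.69 (SE 0.25, edgeR adjusted p = 0.0157), a call lost without the RM03 OD or RM04 OD eye (adjusted p = 0.0592 and 0.0667, in a range of 0.00837 to 0.0667). At the fovea it was higher in retina by 0.55 (SE 0.25, edgeR adjusted p = 0.0516), in 4 of 4 eyes and without overlap, and passed in 6 of 11 alternatives, in a range of 0.0193 to 0.225.

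The difference between tissues in the change from fovea to another location was tested as an interaction. From fovea to periphery 4 of 7 entries were called, against 43.5% of genes. These were POU4F1, POU4F2 at 2.59 (SE 0.86, edgeR adjusted p = 0.016), TBR1 at 4.07 (SE 1.22, edgeR adjusted p = 0.00813) and FOXP2 at -2.99 (SE 0.36, edgeR adjusted p = 2.82e-07). POU4F1 passed the filter on low counts through retina alone, with 14 and 37 counts over the 4 foveal and the 4 peripheral RPE/choroid libraries, so no value is drawn from its difference. The same libraries held 38 and 17 counts of TBR1, with 15 of the 17 in RM03 OS. They held 111 and 43 counts of POU4F2, with 70 of the 111 in RM04 OD. The differences of TBR1 and POU4F2 thus also rest on few RPE/choroid counts. From fovea to nasal location FOXP2 was the 1 entry called, at -2.36 (SE 0.36, edgeR adjusted p = 3.00e-05), against 23.5% of genes, and from fovea to perimacula likewise, at -1.77 (SE 0.36, edgeR adjusted p = 0.00144), against 15.2%. FOXP2 kept its call in every alternative run for these 3 differences. The call for TBR1 was lost without the RM03 OS eye (1.48, adjusted p = 0.635, in a range of 0.00125 to 0.635), and that for POU4F2 without the RM03 OD eye (2.50, adjusted p = 0.0986) or the RM03 OS eye (1.96, adjusted p = 0.085), in a range of 0.00656 to 0.0986.

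The genes whose log2 CPM ran most like that of each member over the 16 retina libraries were ranked by Pearson's r, as a description, since the libraries share eyes, flow cells and the order of locations. POU4F2 was followed by RBPMS, an RNA-binding protein of ganglion cells (r = 0.9973), SLC17A6, the vesicular glutamate transporter of ganglion cells (0.9964), and ELAVL2 (0.9949). TBR1 was followed by RBPMS (0.9915), EBF3 (0.9906) and PRRT2 (0.9903), and POU4F1 by FSD1 (0.9938), SNCG (0.9927) and GALNT17 (0.9874). Among the genes closest to FOXP2 were CYTH2 (0.982) and CTR9 (0.9809). The profiles of ISL2 and SATB1 had no such close neighbours. The nearest were RNASEK (0.8412), THTPA (0.7515) and ATP5G2 (0.7349) for ISL2, and TEX9 (0.8252), FBXL13 (0.7912) and NFE2L2 (0.7908) for SATB1. Among the members, r was 0.99 for POU4F2 with TBR1 and 0.949 for POU4F1 with POU4F2. FOXP2 gave -0.882 with POU4F1, -0.839 with POU4F2 and -0.831 with TBR1, and ISL2 gave 0.247 with POU4F2.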

How the data were processed

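Poly-A RNA was sequenced as paired reads of 100 bp from samples with an RNA integrity number above 6.5. For each of 136 sequencing lanes the authors quantified reads on Mmul_8.0.1 transcripts (Salmon 0.13), then collapsed the transcripts into gene values by the length-scaled TPM option of tximport. The deposited values are therefore estimated counts, which is why their totals differ between lanes, from 7932259 to 39439054. Lane values were summed per library and rounded to whole numbers. No columns belonged to samples outside the series.

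Locations and tissues were compared in edgeR 4.0.16 (quasi-likelihood F test, TMM, filterByExpr at a minimum count of 10, monkey as covariate) under R 4.3.3 with limma 3.58.1, and adjusted over all genes tested. The SE is the log2 fold change divided by the root of the F statistic. Comparisons among fovea, perimacula and periphery came from a fit of those 12 libraries of a tissue, those with the nasal location from all 16, and tissue comparisons from all 32. Scores used log2 CPM at a prior count of 2. Other steps used Python 3.11.15, numpy 2.4.6, pandas 2.3.3, scipy 1.17.1 and matplotlib 3.10.9. Alternatives were DESeq2 1.42.0, RLE normalization, no filter, a minimum of 10 counts per library, a model without covariate, the monkey within each tissue, a block for the eye, fewer or more locations, a prior count of 0.25, a shorter score, each eye left out, and, chosen after seeing the data, the left perimacula retina library of RM04 left out, a score without OPN4 and an exact test within eyes.

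The replicate numbers pair libraries because the labels give the eye. Over the 1000 most variable genes the deviations of libraries from the same eye correlated at a mean r of 0.56 in retina and 0.394 in RPE/choroid, with a lowest value of 0.166. The members and lists were chosen with earlier results of these data known. Genes named are the members, up to 4 genes of each list by mean retinal CPM besides those making up a count of 5 or fewer, those that went against their list, or an example chosen after its value was seen (OPN4, SOX4), and the 3 genes most correlated with each member among those with a single entry. A gene named by the last part of this rule is not reported here. No sequence is shown, since the reference used here held gene names only, which list 4 of the 7 identifiers under the same symbol. The edgeR p-values measure the spread between 4 eyes after the average difference between the 2 animals is taken out, so they do not cover that difference. The main fit also leaves out the pairing of libraries by eye. Intervals on counts cover counting error only.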

Additional observations from a re-analysis of the deposited data

Results flagged for a closer look

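Of 55 groups of 4 libraries checked for a library far from the other three, 6 had one. The rule flags about 1 group in 20 by chance for normally distributed values. That rate does not hold for counts near 0, so 6 of 55 cannot be set against it. In retina the left perimacula of RM04 held 12.2 CPM of TBR1, against 4.42 to 5.72 CPM in the other eyes, and this library also had the highest POU4F2 and the lowest FOXP2 of its group. The other 5 were in RPE/choroid and rest on few counts. TBR1 was at 0 CPM in the nasal library of RM04 OD, against 0.041 to 0.0471 CPM, and at 0.241 CPM in the periphery of RM03 OS, against 0 to 0.0273 CPM. ISL2 was at 0.0233 CPM in the fovea of RM04 OS and at 0.032 CPM in the perimacula of RM03 OD, with 0 in the other eyes of each group. The second SATB1 entry was at 0.154 CPM in the perimacula of RM04 OS, against 0.641 to 0.701 CPM.

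The change between locations differed between retina and RPE/choroid by the interaction test in 5 cases besides POU4F1 from fovea to periphery. POU4F1 was also called there but passed the filter on low counts through retina alone, so it is left out here. Those of POU4F2 and TBR1 rest on few RPE/choroid counts. Over the 4 foveal and the 4 peripheral libraries these were 111 and 43 for POU4F2 and 38 and 17 for TBR1. From fovea to periphery the retina minus RPE/choroid difference in log2 fold change was 2.59 for POU4F2, 4.07 for TBR1 and -2.99 for FOXP2. For FOXP2 it was also -1.77 from fovea to perimacula and -2.36 from fovea to nasal location. The FOXP2 differences set a retinal change of -3.03, -1.87 and -2.66 against -0.13, -0.22 and -0.40 in RPE/choroid, where no location was called.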

How the results depend on the processing

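Of the named log2 fold changes and score differences, 1273 of 1365 recomputed values kept their direction and their side of the threshold, 43 lost a call, 18 gained one, and 31 that were not called changed sign, among them ISL2 between foveal and peripheral retina (-0.09 to 0.38). For counts of calls, 340 stayed within 1.5 times and 47 did not. The retinal calls of POU4F1, POU4F2, TBR1 and FOXP2 between fovea and periphery and between fovea and nasal retina held in every alternative in which the gene was tested, and the minimum of 10 counts in each library left TBR1 untested. With the eye as a replicate block, 10018 genes and 4 members were called between foveal and peripheral retina (10312 and 4 without it), and apart from SATB1 in both tissues no member lost its edgeR call. Within eyes, where the exact test cannot go below p = 0.125, 0 members differed from the ganglion cell markers against periphery, perimacula or nasal retina (6, 4 and 5 without the block).

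A minimum of 10 counts in each library, which removes members with low RPE/choroid counts, left 2 members tested, with 2, 1, 0 and 1 called between tissues at the fovea, perimacula, nasal location and periphery, and 1 in the tissue difference from fovea to periphery. Members called in RPE/choroid between fovea and periphery fell to 0 with the block, without covariate and with 2 locations alone, and ranged from 0 to 1 with an eye left out. DESeq2 called 1 member and 785 genes between perimacula and nasal retina, where no covariate gave 29 genes, omitting the RM04 OS perimacula library 71, and leaving out an eye 14 to 66.

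In RPE/choroid, fovea versus perimacula gave 314 genes with DESeq2, 1 with the block, 1 without covariate, 357 with 2 locations alone, 22 with nasal libraries included, and 0 to 5 with an eye left out; fovea versus nasal gave 490, 30, 4 and 346 under the first 4 of these and 0 to 10 with an eye left out. With an eye left out, fovea versus perimacula in retina gave 2 to 5 members and 3225 to 4800 genes, and the tissue differences gave 2 to 4 members from fovea to periphery, 867 to 1890 genes from fovea to perimacula (1641 without covariate) and 2510 to 3133 from fovea to nasal location. The cause of these shifts was not tested. Low counts limit what can be said of POU4F1, POU4F2, TBR1 and ISL2 in RPE/choroid, where a library held at most 70 counts of any of them.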
